A study of Mus musculus with 4 samples.

Results

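Cytosolic ribosomal protein genes were followed in sorted mouse bone marrow cells on 4 one-colour arrays. They were taken as the gene probes named Rpl or Rps with a number and at most 1 further letter, or Rplp0, Rplp1, Rplp2 or Rpsa. This name rule found 126 probes for 81 genes, of 40180 named probes and 28933 named genes on the array. By name, 46 genes belong to the large subunit, 31 to the small subunit, and 4 (Rpl3l, Rpl10l, Rpl39l and Rps27l) are paralogs of another member.

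The 4 arrays held LSK cells, the fraction of stem and early progenitor cells that lacks lineage markers and carries Sca-1 and c-kit, and CD45-negative cells, labelled stromal or niche cells, each at day 0 and day 10. All mice were labelled C57BL6/J and 7 weeks old. Day 0 cells came from healthy, untreated mice. Day 10 cells came from CD45.1 recipients that had received 700 cGy of radiation and 30000 LSK cells from CD45.2 donors. The treatment text gives the stromal sort as CD45.1-negative, so donor blood cells were not removed by that antibody as written. The number of mice behind each array is not given in the sources used here. Each group had 1 array, so no difference below has a replicate error or a test, and 2-fold (1 log2 unit) is a size only.

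Each ribosome carries one copy of most ribosomal proteins, and the genes are therefore usually expressed together and at high levels. Their mRNAs begin with a terminal oligopyrimidine (TOP) tract, a short run of C and T at the 5′ end through which the mTOR kinase and the RNA-binding protein Larp1 control translation. Blood-forming cells are sensitive to this gene family: loss of a single copy of some members causes Diamond-Blackfan anaemia in humans. Array signal measures the amount of mRNA and not its translation.

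To show where C and T runs lie near the start of members, windows of 30 bases were read from RefSeq (GRCm38.p6), 15 bases on each side of the annotated transcription start. Runs of at least 8 C or T are in capitals. The first lines are genes of each subunit, followed by 2 genes with their paralogs.
Rps6 (chr4:86857353-86857382, minus strand): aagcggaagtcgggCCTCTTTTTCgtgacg
Rps10 (chr17:27635230-27635259, minus strand): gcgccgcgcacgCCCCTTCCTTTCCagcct
Rpl15 (chr14:18270972-18271001, minus strand): gtgggagaaagCCTTCTTCCTTTCCTCTgg
Rpl35 (chr2:39005117-39005146, minus strand): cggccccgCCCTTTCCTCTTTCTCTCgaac
Rps27 (chr3:90213634-90213663, minus strand): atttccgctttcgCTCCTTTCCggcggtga
Rps27l (chr9:66946071-66946100, plus strand): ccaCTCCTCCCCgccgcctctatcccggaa
Rpl39 (chrX:37085208-37085237, minus strand): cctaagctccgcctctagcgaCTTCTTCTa
Rpl39l (chr16:10170213-10170242, plus strand): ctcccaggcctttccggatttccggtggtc
The runs of Rps6, Rps10, Rpl15, Rpl35 and Rps27 span the annotated start. The Rps27l run lies wholly before it and the Rpl39 run after the first bases of the transcript, so neither is a TOP tract at that start. A second annotated start of Rps27l has a longest run of 4 and is not shown, and the Rpl39l window holds no run of 8. Of the 81 genes, 61 matched the promoter table, with 73 start entries. A run of at least 8 C or T lay within 30 bases of the start in 36 of the 73 entries (49.3%), against 22.9% of all 32851 entries. Runs of at least 8 A or G in the same window were found in 12.3% of member entries and 25.8% of all entries. The letters CCGGAAGT, on either strand of the 300-base entry, were found in 16.4% of member entries and 3.89% of all. The letters TATAAA, searched on the gene's strand in the 40 bases before the start, were in 0 of 73 member entries and in 2.31% of all.

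Member probes were bright, and many exceeded the range of the scanner. Of 126 probes, 122 were well above background on all 4 arrays by the scanner software's flag. Both probes that were not well above background on any array belong to paralogs, the single probe of Rpl10l and 1 of 2 probes of Rpl39l. Saturated member probes numbered 34 on the LSK day 0 array (27.0%), 42 on LSK day 10 (33.3%), 13 on CD45-negative day 0 (10.3%) and 51 on CD45-negative day 10 (40.5%). Over all probes the saturated shares were 0.514%, 0.713%, 0.206% and 0.749% in the same order. All probes of a gene were saturated for 18, 21, 10 and 26 genes on these arrays, including Rpl41, Rplp1, Rps12, Rps20 and Rps29 on all 4. A total of 52 genes had a probe that was well above background and unsaturated on every array.

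Levels are log2 signals minus the 75th percentile of the array, and a gene is given by its brightest probe that was unsaturated throughout, where it had such a probe. Because that percentile differed (199, 239, 116 and 315 intensity units in the order above), the scanner limit sat at a different level on each array. The median level of saturated member probes was 8.41, 8.11, 9.16 and 7.69. Spots at the limit on both CD45-negative arrays therefore gave apparent differences of -1.61 to -1.10 for 12 genes. These are differences in scaling at the scanner limit, not measured folds, and saturated spots were left out of every count below. Probes spotted several times on an array (26 to 31 probes, unsaturated) varied by an SD of 0.14 to 0.21 log2 units within an array, which covers spot error only.

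**Figure D1:**
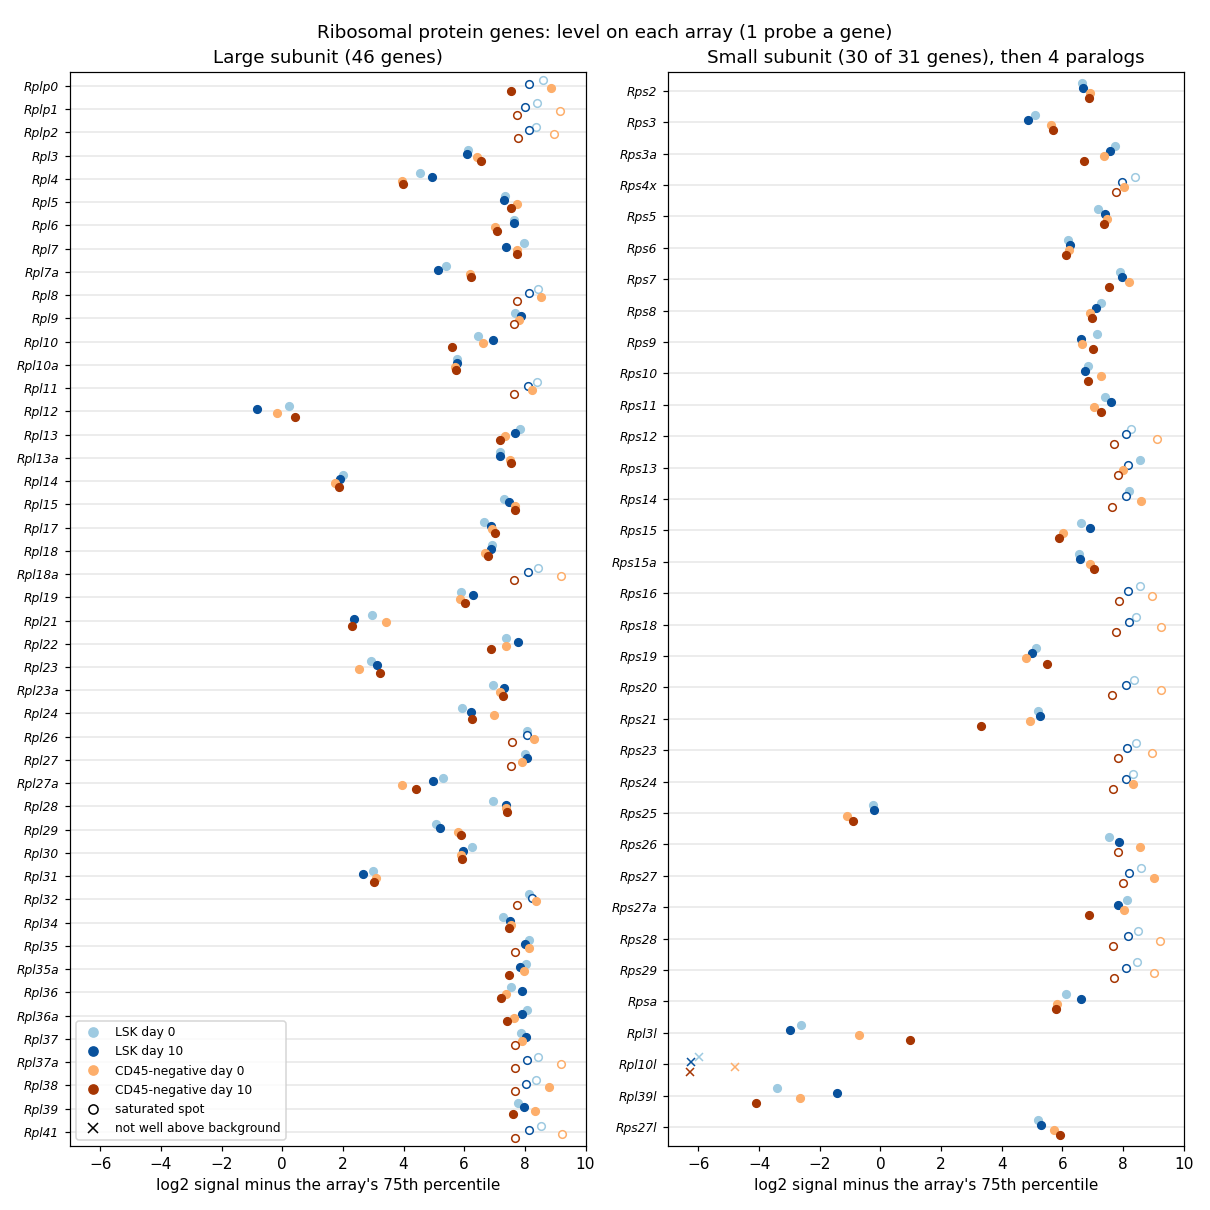
Level of 80 of the 81 ribosomal protein genes (vertical axis) on the 4 arrays, as log2 signal minus the array's 75th percentile (horizontal axis), 1 probe a gene. Open circles are saturated spots, crosses are spots not well above background; saturated spots of 1 array line up at its scanner limit, near 9.16 for CD45-negative day 0 and 7.69 for CD45-negative day 10.

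In LSK cells, ribosomal protein mRNAs differed little between day 10 and day 0. The median difference over the 57 measured genes (well above background and unsaturated on both arrays) was 0.04, against 0.00 for all 15905 measured genes. Of the 57 genes, 50 (87.7%) lay within 0.5 log2 units of 0, against 81.9% of all genes and 94.9% of the 1286 genes with a mean level of at least 5. Rpl39l was at least 2-fold higher at day 10, where 1.48% of all genes were, and Rpl12 was at least 2-fold lower, where 2.63% of all genes were (4.11% either way). Large subunit genes had a median of 0.00 over 35 genes, and small subunit genes 0.04 over 19.

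The LSK difference of Rpl39l was 1.97, the largest of the family; this paralog of Rpl39 is best known from male germ cells. Rpsa, the laminin receptor protein of the small subunit, had a difference of 0.50. The lowest differences were those of Rpl12 (-1.07), Rpl7 (-0.59) and Rpl21 (-0.59). The Rpl12 and Rpl21 probes that stand for their genes are open to doubt, as described with the probe sequences. Of the genes not measured, 19 were saturated on both LSK arrays and 4 on the day 10 array, and the only bound in which the saturated spot was the brighter reached at least 1.06-fold.

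In CD45-negative cells the family also centred near 0, while other genes differed widely. The median over 53 measured ribosomal protein genes was 0.01, against 0.22 over 14069 genes. Of the 53, 37 (69.8%) lay within 0.5 log2 units of 0, against 33.2% of all genes and 49.3% of 1278 genes with a mean level of at least 5. Only Rpl3l was at least 2-fold higher at day 10, where 24.0% of all genes were. Rps21, Rpl39l, Rplp0, Rps27a, Rpl21 and Rpl10 were at least 2-fold lower, where 17.2% of all genes were (41.2% either way). In this comparison 12 further genes were saturated on both arrays and 15 on the day 10 array, and none of the 15 was the brighter there, so they give no bound. The scanner limit lay lower on the day 10 array (median saturated level 7.69) than on the day 0 array (9.16). A gene above the day 10 limit at day 0 could therefore count as measured only if it read lower at day 10. Rplp0 (8.87 at day 0) and Rps27a (8.03) are such genes, so this filter favours lower members in the counts.

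These CD45-negative values depend on the scaling. A shift by the array medians moved all genes up by 0.46 and the members' counts to 4 higher and 2 lower. Of all 14069 genes, 5399 were then higher and 1618 lower, with 76.9% of all calls higher in place of 58.3%. A shift by 5 unsaturated spike-in probes added 3.26 log2 units to every gene. This put all 53 members at least 2-fold higher, as 13267 of all 14069 genes then were (99.0% of all calls). Statements on CD45-negative cells below are therefore relative to the 75th percentile of the array, that is, to the other mRNAs in the same sample.

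By its marker genes, the mix of cell type mRNAs in the CD45-negative sort differed between the day 0 and day 10 arrays. All 12 marrow stroma markers were well above background at day 0 and 9 at day 10, when Lepr, Pdgfra and Ebf3 were not, and their log2 summed level was 7.18 and 3.86. The 14 erythroid markers had a log2 summed level of 11.35 at day 0 and 8.34 at day 10, against 4.78 and 4.10 in LSK cells. The 11.35 is bounded by Alas2, Slc4a1 and Hba-a1, which were saturated on the CD45-negative day 0 array. T and NK cell markers went from 7 of 14 detected (3.15) to 13 (7.04), and B and plasma cell markers from 8 of 10 (6.98) to 10 (8.84). Neutrophil markers were all detected, with a median of 1.94 over the 8 measured on both arrays. Of those 8, 6 were at least 2-fold higher at day 10 and 0 lower, against 24.0% and 17.2% of all genes. The summed level of the neutrophil markers (10.17 and 9.74) is bounded by S100a9, saturated on both arrays, and S100a8, saturated at day 10. The 6 platelet markers summed to 4.87 and 0.66. The part of these cells in the ribosomal protein values was not tested, and in such bulk samples fewer cells of a type and less RNA per cell cannot be told apart.

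In LSK cells, stem and progenitor markers summed to 7.41 at day 0 and 7.13 at day 10, against 3.09 and 4.17 in CD45-negative cells. All 10 neutrophil markers were also well above background on both LSK arrays. Between LSK days, 3 of 8 measured neutrophil markers were at least 2-fold higher and 0 lower. Of 11 T and NK cell markers, 1 was higher and 4 lower, and of 9 B and plasma cell markers 1 and 2. Of all genes, 1.48% were higher and 2.63% lower. The part of these cells in the LSK values was not tested. Ptprc, the gene of CD45, had levels of 4.18 and 4.25 in LSK cells and of 3.10 and 5.58 in the CD45-negative sort, where it was well above background on both days.

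**Figure D2:**
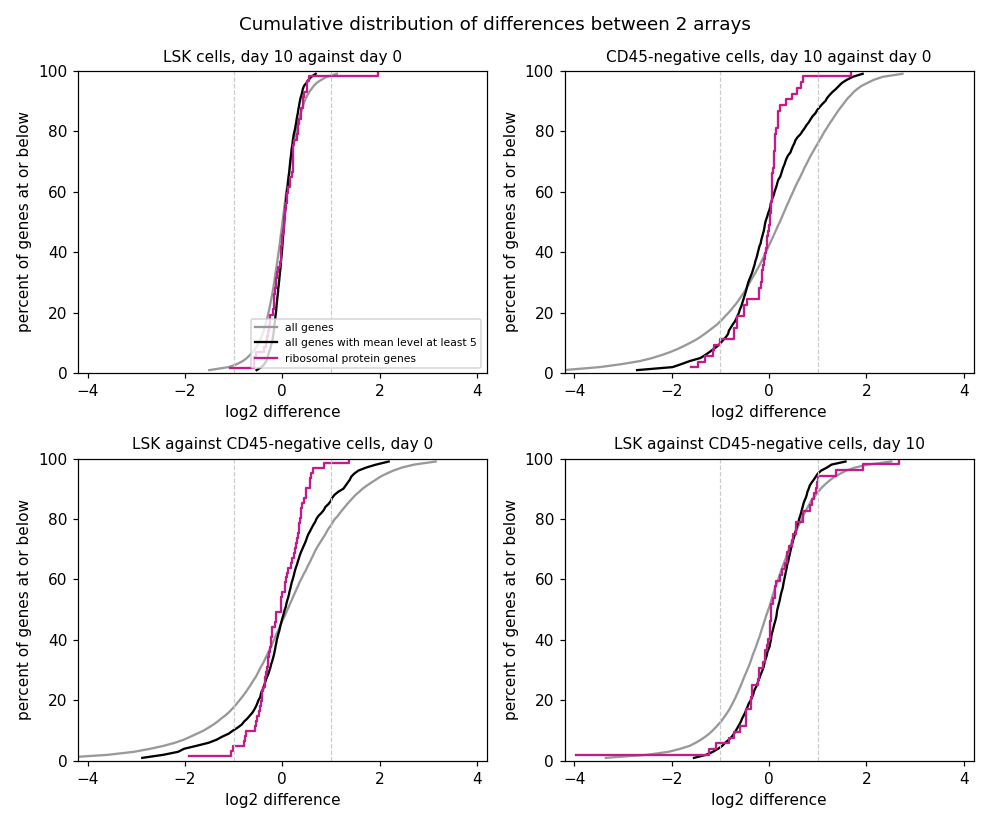
Cumulative share of genes (vertical axis, percent) against their log2 difference (horizontal axis) in the 4 comparisons, for ribosomal protein genes, all measured genes, and all measured genes with a mean level of at least 5; dashed lines mark 2-fold. In CD45-negative cells 69.8% of the ribosomal protein genes and 33.2% of all genes lay within 0.5 log2 units of 0.

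Between the populations at day 0, the median LSK minus CD45-negative difference was -0.03 over 61 ribosomal protein genes and 0.10 over 14184 genes. Of the 61, 46 (75.4%) lay within 0.5 log2 units of 0, against 34.5% of all genes and 54.1% of those with a mean level of at least 5. Rpl27a alone was at least 2-fold higher in LSK cells, with 22.1% of all genes, and Rpl3l, Rpl24 and Rps26 were at least 2-fold lower, with 17.8% of all genes (39.9% either way). Rpl27a had levels of 5.30 and 4.96 in LSK cells (day 0, then day 10) and 3.93 and 4.40 in CD45-negative cells, a day 0 difference of 1.37. Rpl24 had 5.92 and 6.23, then 6.97 and 6.25, a day 0 difference of -1.05. Only its CD45-negative day 0 value stood apart from the other 3. Its second probe gave -0.09. Rps26 had a day 0 difference of -1.01 (levels of 7.55 and 8.56) and was saturated in CD45-negative cells at day 10. Rps25 (0.86) and Rpl6 (0.63) were the next highest in LSK cells. The Rps25 value comes from its dimmest probe, and its other probes gave 0.15 and -0.06. The second probe of Rpl6 gave -0.12. A further 3 genes were saturated and brighter in LSK cells, and the largest of these bounds was at least 1.29-fold.

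At day 10 the median difference was 0.05 over 52 ribosomal protein genes and -0.02 over 15322 genes, and 33 of the 52 (63.5%) lay within 0.5 log2 units of 0, against 45.5% of all and 57.6% of those with a mean level of at least 5. In LSK cells 4 members were at least 2-fold higher (11.2% of all genes), namely Rpl39l (2.67), Rps21 (1.93), Rpl10 (1.36) and Rps15 (1.01). A further 3 were at least 2-fold lower (12.8% of all genes; 24.0% either way), namely Rpl3l (-3.97), Rpl12 (-1.24) and Rpl7a (-1.09). For Rpl7a, whose used probe had levels of 5.39 and 5.13 in LSK cells and 6.17 and 6.23 in CD45-negative cells, a second measured probe gave -0.07 at day 10. The population comparisons share their arrays with the day comparisons, so a gene low on the CD45-negative day 10 array appears in both.

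The spike-in shift added 1.76 to every day 0 population difference and -1.68 to every day 10 difference. With it 56 of 61 members were at least 2-fold higher in LSK cells at day 0, beside 10996 of all 14184 genes. At day 10, 41 of 52 members were at least 2-fold lower, beside 12321 of all 15322 genes. The share of higher genes among all calls went from 55.4% to 95.3% at day 0, and at day 10 from 46.6% to 0.965%, or to 18.0% with the median shift. In LSK cells between days that share was 36.1%, 47.1% with the median shift and 17.3% with the spike-in shift.

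The measured ribosomal protein genes were steadier over the 4 arrays than most genes. This leaves out 29 members without a probe detected and unsaturated on all arrays. Some of the others lay at the scanner limit of the CD45-negative day 10 array (saturated levels of 7.48 to 7.98). There Rpl15 (7.68), Rpl13a (7.53) and Rpl5 (7.53) held 6, 6 and 3 saturated pixels. How far this limit narrowed the ranges was not tested. The range of a gene's 4 levels had a median of 0.64 over the 52 members measured on all arrays, 1.24 over 13715 genes, and 0.81 over 1237 genes with a mean level of at least 5. A range of 1 log2 unit or more was found for 13 of the 52 members, 62.4% of all genes and 38.9% of those with a mean level of at least 5. The steadiest, named after their values were seen, was Rpl10a, with levels of 5.77 and 5.75 in LSK cells and 5.69 and 5.74 in CD45-negative cells. Its whole range, 0.08 log2 units, was smaller than the spot error.

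**Figure D3:**
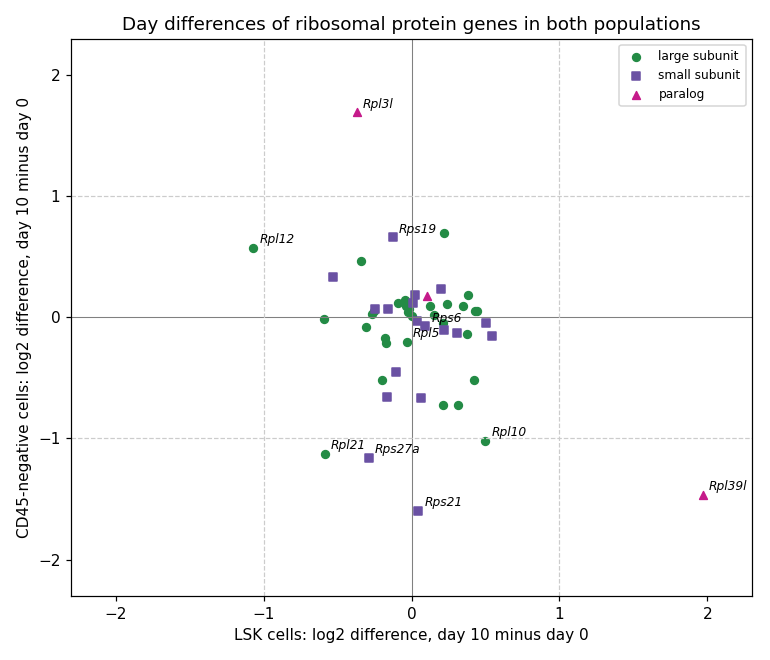
Day 10 minus day 0 difference (log2) in LSK cells (horizontal axis) and in CD45-negative cells (vertical axis) for the 52 ribosomal protein genes measured on all 4 arrays; dashed lines mark 2-fold and point shapes the subunit. Rpl39l lies at 1.97 in LSK and -1.46 in CD45-negative cells (1.80 in the latter with the spike-in shift), and most genes lie near 0 on both axes.

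Day differences of the 2 populations, which share no array, had the same sign for 23 of 52 genes. Pearson's r across genes was -0.35 and Spearman's rho -0.18, and without the 3 measured paralogs both were -0.10. The points share slide and probes, and genes are not independent replicates, so these are descriptions. No common day pattern of single members was visible in them.

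Among members with roles outside the ribosome's core, Rps6, the substrate of the S6 kinases, had levels of 6.17 and 6.26 in LSK cells and 6.20 and 6.13 in CD45-negative cells. No array stood apart. Rpl5 and Rpl11 form, with 5S rRNA, the particle that binds Mdm2 and releases p53 when ribosome assembly fails. Rpl5 had 7.34 and 7.31, then 7.73 and 7.53, again within 0.5 log2 units. Rpl11 was saturated on all but the CD45-negative day 0 array (8.23), and gives no difference. Rpsa had 6.13 and 6.63, then 5.83 and 5.79, higher in LSK cells on both days. Its second, dimmer probe had a day 0 population difference of 1.55 in place of 0.29.

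Rps27a encodes a ribosomal protein fused to ubiquitin. Its levels were 8.14 and 7.84 in LSK cells, then 8.03 and 6.87 in CD45-negative cells, with no saturated pixel on any array. The CD45-negative day 10 array alone was low, by 1.16 against day 0. The day 0 level of 8.03 lay above the levels of saturated member probes at day 10 (7.48 to 7.98). Rps27a could therefore be measured only as lower on the CD45-negative day 10 array. Rpl10, a late-joining protein of the large subunit, had 6.46 and 6.96, then 6.61 and 5.60, and was likewise low on that array only, by 1.02.

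Rplp0, the base of the ribosomal stalk and a common reference gene, illustrates the limit of bright probes. One of its probes was saturated on all 4 arrays, and the other, listed under a predicted transcript, on both LSK arrays. On the CD45-negative arrays that second probe read 8.87 and 7.55, a difference of -1.33. The 7.55 lies within the levels of saturated member probes on that array (7.48 to 7.98), although the spot itself held no saturated pixel. A further probe of this gene, filed under its older symbol Arbp and so outside the name rule, was unsaturated throughout, with levels of 7.25, 7.45, 7.80 and 7.51. Its CD45-negative values lie far closer together than those of the probe counted above. Its day 10 value of 7.51 also lies within the levels of saturated member probes on that array (7.48 to 7.98).

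The 19 ribosomal protein genes known from Diamond-Blackfan anaemia had 13, 10, 14 and 10 measured members in the 4 comparisons (LSK days, CD45-negative days, day 0 populations, day 10 populations). Their medians were -0.03, -0.11, -0.27 and -0.15, and of these genes only Rps26 at day 0 passed 2-fold (1 of 14, or 7.14%, lower). Of all genes, 4.11%, 41.2%, 39.9% and 24.0% passed 2-fold either way in the 4 comparisons. Rps19, the gene first linked to the disease, had levels of 5.13 and 5.0 in LSK cells, then 4.81 and 5.48 in CD45-negative cells. Its day difference in CD45-negative cells, 0.66, was the highest of this list, and that of Rps7, -0.66, the lowest. In LSK cells the lowest of the list was Rpl31 (-0.31), and at day 10 the list ran between populations from -0.47 (Rps19) to 0.41 (Rps7). The medians have no settled direction: under other scalings that of the CD45-negative days ran up to 3.15, and that of the LSK days from -0.21 to 0.04. Rps14, known from the 5q- syndrome, had 8.19 in LSK and 8.61 in CD45-negative cells at day 0 (-0.42) and was saturated on both day 10 arrays.

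Among the paralogs, Rpl3l and Rpl39l varied more over the arrays than the genes they resemble. Rpl3l, known from heart and skeletal muscle, had levels of -2.62 and -2.99 in LSK cells, then -0.71 and 0.98 in CD45-negative cells. Both CD45-negative values lay above both LSK values, by 1.91 at day 0 and 3.97 at day 10. Rpl3 itself had 6.13 and 6.08, then 6.41 and 6.56, with no difference of 0.5 or more. Rpl39l had -3.41 and -1.44 in LSK cells, then -2.65 and -4.11, the last close to the lowest level called above background on that array (-4.24). Its day 0 values were also near those lowest levels, -3.95 on the LSK and -3.15 on the CD45-negative array. The other Rpl39l probe was not well above background on any array. Rpl39 had 7.77 and 7.99, then 8.35 and 7.62. Rps27l, known as a p53 target, had 5.20 and 5.30, then 5.73 and 5.90, and did not differ between days by more than 0.18; Rps27 was saturated on 3 arrays. Rpl10l was not well above background on any array.

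Of other paralogs fixed as a list with their partners (13 measured of 16 on the array), Rps4l, read by a probe named Rps4y2, had 2.77 and 2.83 in LSK cells, then 0.82 and 1.74. Rpl22l1, the paralog of Rpl22, had 6.35 and 6.25, then 6.33 and 6.53, and so varied less than Rpl22. Over that list the medians were -0.04, 0.14, -0.02 and -0.06 in the same order of comparisons. The counts at least 2-fold higher and lower were 1 and 0, 1 and 2, 2 and 1, and 3 and 1. That is 7.69%, 7.69%, 15.4% and 23.1% higher and 0%, 15.4%, 7.69% and 7.69% lower. Of all genes, 1.48%, 24.0%, 22.1% and 11.2% were higher and 2.63%, 17.2%, 17.8% and 12.8% lower.

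Several of these results rest on 1 of several probes, so the probes were set side by side. The capitals in the Rpl29 and Rps3a lines mark the stretch that 2 probes of the gene share; the other lines show probes that disagree, that are listed under another transcript, or that were saturated, and the probe of Rpl3l, the member that differed most between the populations.
Rpl29 probe 1: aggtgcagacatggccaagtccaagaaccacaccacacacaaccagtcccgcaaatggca
Rpl29 probe 2: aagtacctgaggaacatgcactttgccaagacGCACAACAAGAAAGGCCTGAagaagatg
Rpl29 probe 3: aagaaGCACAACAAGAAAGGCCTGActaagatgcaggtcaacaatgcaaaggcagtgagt
Rpl29 probe 4: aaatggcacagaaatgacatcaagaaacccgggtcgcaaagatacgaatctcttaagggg
Rps3a probe 1: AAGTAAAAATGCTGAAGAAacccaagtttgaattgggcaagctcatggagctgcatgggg
Rps3a probe 2: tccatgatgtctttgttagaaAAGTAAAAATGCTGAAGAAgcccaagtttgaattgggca
Rpl12 probe 1: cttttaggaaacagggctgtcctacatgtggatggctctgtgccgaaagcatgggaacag
Rpl12 probe 2: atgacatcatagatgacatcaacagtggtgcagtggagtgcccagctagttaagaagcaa
Rps21 probe 2: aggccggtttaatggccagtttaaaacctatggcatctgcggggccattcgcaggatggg
Rpl22 probe 1: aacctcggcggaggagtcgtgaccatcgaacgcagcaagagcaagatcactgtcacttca
Rpl3l probe 1: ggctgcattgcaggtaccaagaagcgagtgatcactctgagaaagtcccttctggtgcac

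Rpl29 shows how far probes of a gene could part. Probe 3 had levels of 1.85 and 1.997 in LSK cells, then -0.09 and 1.99 in CD45-negative cells, and only the CD45-negative day 0 value was low. Its day difference there was 2.08, while probes 1, 2 and 4 gave 0.10, -0.26 and 0.12. Probes 2 and 3 share 20 bases and, over an aligned 33 bases, differ by C32A, A53C and G54T (base of probe 2, position counted from 1 at its 5′ end, base of probe 3). Rps3a probes 1 and 2 overlap by 39 bases with the substitution A20G, counted in probe 1. They gave -0.65 and -0.79 in CD45-negative cells, and a further probe was saturated at day 10.

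Rpl12 was represented by its probe 1, which the array design lists under a small nucleolar RNA (Snora65), because probe 2, the coding probe, was saturated on 3 arrays. Probe 1 had levels of 0.23 and -0.84, then -0.17 and 0.41. Both Rpl12 differences past 2-fold come from it and were lost when probes without a RefSeq transcript of their own gene were left out. Leaving these out also lost the CD45-negative differences of Rplp0 and Rpl21. The remaining Rpl21 probe, at -1.45 and -1.06, gave 0.39 in place of -1.13. Rps21 probe 2, the coding probe, was saturated on 3 arrays, and its probe 1 had 5.21 and 5.26 in LSK cells, then 4.93 and 3.33. The last was the low value, 1.60 under day 0.

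Rpl22, required for alpha-beta T cell development, had 7.37 and 7.79 in LSK cells, then 7.39 and 6.87 by probe 1. Probe 2 had 3.79 and 3.29, then 1.41 and 2.55. The CD45-negative day differences, -0.52 and 1.13, had opposite signs, as did those of LSK cells, 0.42 and -0.50. At day 0 the population differences were -0.02 and 2.38. Gaps over 1 log2 unit between measured probes of a gene were found for 0 of 17 genes in the LSK days, 3 of 14 in the CD45-negative days (Rpl29, Rpl22 and Rpl21), 4 of 20 at day 0 (Rpl29, Rpl22, Rpsa and Rpl7a) and 1 of 13 at day 10 (Rpl7a). Over all genes with several measured probes the shares were 6.26%, 16%, 19.4% and 28.5%.

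Probe identity touches the family widely. Database records listed for a probe numbered 1 for 33 probes, and 93 listed more. Of probes with 1 record, 18.2% were saturated on at least 1 array, against 49.2% with 2 to 4 and 53.6% with 5 or more. Ribosomal protein genes have many near-identical processed pseudogenes, and binding of their transcripts to these probes was not tested.

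**Figure D4:**
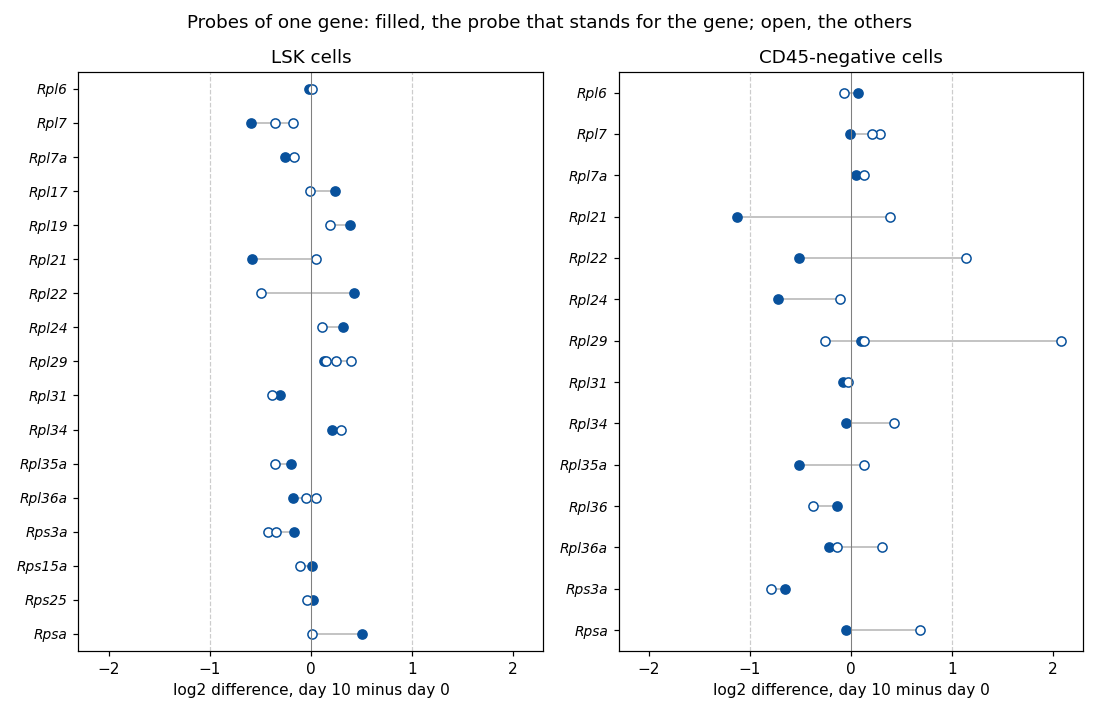
Day 10 minus day 0 difference (horizontal axis, log2) of each measured probe, for ribosomal protein genes with at least 2 measured probes (vertical axis), in LSK and CD45-negative cells. Filled points are the probes that stand for a gene; the Rpl29 probe at 2.08 and the Rpl22 probe at 1.13 lie apart from the others of their genes in CD45-negative cells.

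Genes that build or use ribosomes were described beside their products. Ribosome biogenesis factors, which process rRNA and assemble the subunits, had medians of -0.05 in LSK cells between days (2 of 50 at least 2-fold higher, 0 lower) and 0.88 in CD45-negative cells (20 of 49 higher, 0 lower). In CD45-negative cells that is 40.8% higher and 0% lower, against 24.0% and 17.2% of all genes. In LSK cells it is 4% higher and 0% lower, against 1.48% and 2.63%. The CD45-negative values ran from -0.66 for Nvl to 1.84 for Mdn1, a giant ATPase of large subunit maturation. Its levels were 3.19 and 2.83 in LSK cells, then 0.84 and 2.68, so the CD45-negative day 0 array was the low one. In LSK cells the largest was Nob1 (1.04), the nuclease that ends 18S rRNA maturation, and the lowest Gar1 (-0.58). LSK cells exceeded CD45-negative cells by a median of 1.06 at day 0 (27 of 49 higher, 0 lower, against 22.1% and 17.8% of all genes). At day 10 the median was 0.13 (4 of 50 higher, 1 lower, against 11.2% and 12.8%). It turned to -0.28 with the median shift (1 higher, 2 lower) and -1.55 with the spike-in shift (0 higher, 41 lower). Of all 15322 genes, 830 were higher and 3788 lower with the median shift, and 120 and 12321 with the spike-in shift. Without these shifts, single factors ran from -0.59 (Brix1) to 2.35 (Mdn1) at day 0, and from -1.05 (Gar1) to 1.42 (Nolc1) at day 10. Under each of the 7 scalings the biogenesis median lay above that of the ribosomal protein genes in the CD45-negative days and in the day 0 populations, with ranges of 0.88 to 4.14 and 1.03 to 2.82. Scalings that only shift a whole array, such as the median and spike-in shifts, move both lists equally. They could not change this order and add no support to it.

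The RNA polymerase I machinery, which transcribes rRNA, had medians of 0.11 in LSK cells (0 of 13 past 2-fold) and 0.91 in CD45-negative cells (4 of 13 higher, 0 lower). Those 4 are 30.8% of the list, near the 24.0% of all genes. The population median was 0.50 at day 0 (5 of 13 or 38.5% higher, 0 lower, against 22.1% and 17.8% of all genes). At day 10 it was 0.05 (1 of 13 or 7.69% higher, 0 lower, against 11.2% and 12.8%). The day 10 median turned to -0.36 with the median shift and -1.63 with the spike-in shift. The largest was Taf1b in the day comparisons (0.40 and 1.85) and Taf1a between populations (2.31 and 1.0). The lowest were Polr1c (-0.25), Ttf1 (-0.50), Taf1d (-0.18) and Polr1d (-0.51).

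Translation elongation and initiation factors were described in the same way. The 5 elongation factors had medians of 0.15, 0.02, 0.53 and 0.39. Only Eef1d passed 2-fold, at -1.25 in the CD45-negative days and -1.14 at day 0. That is 20% of the list lower in each, near the 17.2% and 17.8% of all genes. The highest values of the list were those of Eef1d (0.28), Eef2 (0.75 and 0.81) and Eef1g (0.52). The lowest otherwise were those of Eef1b2 (-0.18) and Eef2 (0.21). The 30 initiation factors had medians of 0.12, 0.22, -0.01 and -0.26. Among them 0, 1, 1 and 3 (0%, 3.33%, 3.33% and 10%) were at least 2-fold higher and 0, 2, 6 and 3 (0%, 6.67%, 20% and 10%) lower. Of all genes, 1.48%, 24.0%, 22.1% and 11.2% were higher and 2.63%, 17.2%, 17.8% and 12.8% lower. Eif5, which triggers GTP hydrolysis at the start codon, had 3.43 and 3.60 in LSK cells, then 6.19 and 4.18, and was thus highest in CD45-negative cells at day 0. It gave the lowest values of the list in the CD45-negative days (-2.01) and at day 0 (-2.76). Eif4b gave the highest between populations (1.36 and 1.69), Eif4g3 in the CD45-negative days (1.23) and Eif2s2 in LSK cells (0.47). The lowest were Eif4g1 (-0.59) in LSK cells and Eif4a2 (-1.16) at day 10.

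Other mRNAs with a TOP tract, a list of 19, had medians of 0.07, 0.16, 0.18 and 0.04. Of those measured, 0, 0, 2 and 1 (0%, 0%, 11.1% and 5.88%) were at least 2-fold higher and 0, 2, 2 and 0 (0%, 11.1%, 11.1% and 0%) lower. Of all genes, 1.48%, 24.0%, 22.1% and 11.2% were higher and 2.63%, 17.2%, 17.8% and 12.8% lower. Pabpc1, the poly(A)-binding protein, had the lowest CD45-negative day difference (-1.55; 8.67 and 7.12), and Npm1 the highest (0.97). In LSK cells the list ran from -0.18 (Eef1b2) to 0.28 (Eef1d), at day 0 from -1.26 (Tpt1) to 1.36 (Eif4b), and at day 10 from -0.79 (Eif3f) to 1.69 (Eif4b). The 78 mitochondrial ribosomal proteins, which serve the separate ribosome of the mitochondrion, had medians of 0.04, 0.45, 0.14 and -0.21. Among them 0, 5, 6 and 2 (0%, 6.41%, 7.69% and 2.56%) were at least 2-fold higher. A further 0, 0, 6 and 10 (0%, 0%, 7.69% and 12.8%) were lower, beside the shares of all genes given above for the TOP list. Their extremes were Mrps21 (-0.46) and Mrps5 (0.67) in LSK cells, Mrpl53 (-0.78) and Mrpl37 (1.36) in CD45-negative cells, Mrps36 (-1.73) and Mrpl12 (1.61) at day 0, and Mrpl37 (-1.73) and Mrps5 (1.19) at day 10.

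The 13 regulators of ribosomal protein mRNA supply and translation had medians of 0.06, 0.40, 0.09 and 0.16. Of those measured, 0 of 13, 2 of 12, 4 of 12 and 2 of 13 were at least 2-fold higher and 1, 0, 1 and 3 lower. That is 0%, 16.7%, 33.3% and 15.4% higher and 7.69%, 0%, 8.33% and 23.1% lower. Of all genes, 1.48%, 24.0%, 22.1% and 11.2% were higher and 2.63%, 17.2%, 17.8% and 12.8% lower. Myc, which drives ribosomal protein and biogenesis genes, had 4.13 and 4.36 in LSK cells, then 2.19 and 2.65. LSK cells were higher on both days, by 1.94 and 1.71. Mtor had -1.42 and -1.25, then 0.07 and 0.83, with LSK cells lower by 1.49 and 2.08. Trp53, the gene of p53, had the highest value of the list at day 10 between populations (1.89). Cdkn1a, a p53 target, had the largest CD45-negative day difference (1.42) and Rps6kb2 the lowest (-0.79). In LSK cells the range ran from -1.19 (Mycn) to 0.44 (Trp53).

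**Figure D5:**
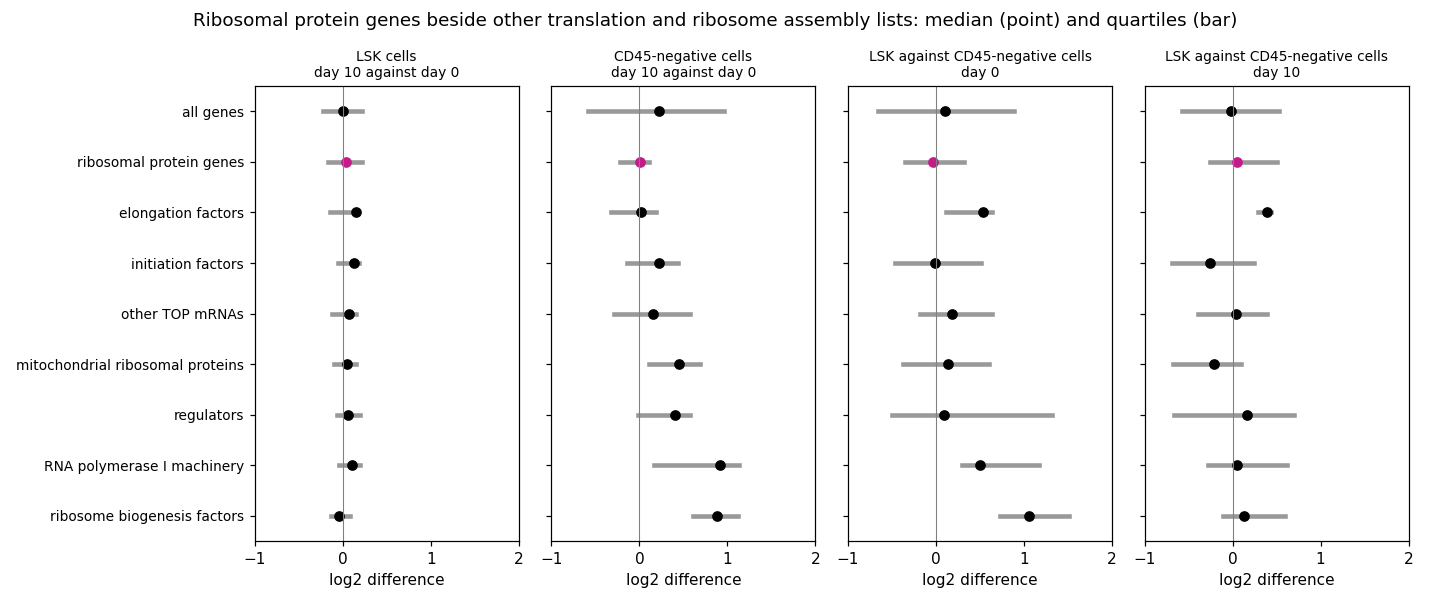
Median (point) and quartiles (bar) of the log2 difference (horizontal axis) for all genes, ribosomal protein genes and 7 related lists (vertical axis) in the 4 comparisons. In CD45-negative cells between days the ribosomal protein genes have a median of 0.01 and the biogenesis factors of 0.88.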

How the data were processed

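RNA of 4 sorted samples was labelled with Cy3 and read on 1-colour Agilent 8x60k arrays. Per the file headers, the authors used Feature Extraction (version 10.5.1.1) to obtain a background-subtracted intensity per spot. Other columns in these deposited files, of unit other, mark control, outlier, detected and saturated spots or count pixels. Log2 values make up the deposited series table, in which at least 99.9% of probes on each array equal the log2 processed intensity plus 1 constant, within 0.001, so scale and centring are known. Probe annotation is on mm9, per the file headers. All 4 arrays lie on 1 slide with 1 scan time.

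From these, control and outlier spots were removed, log2 processed signals averaged per probe and the 75th percentile of each array subtracted. A gene was given by its brightest probe among those well above background and unsaturated on all arrays, otherwise by its brightest probe. A difference counted as measured where both spots were well above background and unsaturated. With 1 array a group no test was possible; the number of arrays limits the precision. The difference scripts were tested on simulated data. Alternatives were a median shift, the 75th percentile of detected probes, a spike-in shift, quantile and cyclic loess normalization (limma 3.58.1 in R 4.3.3), normexp (offset 50), the series table, other probe rules and no detection filter; 3 more were chosen after seeing the data. Probe sequences come from the spot files, start windows from RefSeq (GRCm38.p6).

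The members, the 9 process lists and 7 cell type marker lists and the alternatives were chosen with earlier results of these data known. Named were the 3 largest differences each way in each comparison, members past 2-fold, fixed genes (Rps19, Rpl5, Rpl11, Rps6, Rplp0, Rpsa, Rps27a, Rps14), paralogs, genes whose probes differ by over 1 log2 unit, and the extremes of each list; some named by this rule are not reported here.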

Additional observations from a re-analysis of the deposited data

Results flagged for a closer look

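Rpl39l stood apart because its day difference was past 2-fold in opposite directions in the 2 populations. It was 1.97 log2 units higher at day 10 in LSK cells and lower in CD45-negative cells (-1.46), where the spike-in shift turned it to 1.80. Each value is a difference between 2 arrays, and the difference between the populations was not tested. Its probe was dim, and with normexp background correction the LSK difference was 0.68. The levels of this probe, except on LSK day 10, lay near the lowest level called above background. Its other probe was not well above background on any array.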

How the results depend on the processing

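Medians of the ribosomal protein genes stayed within the spot error, and counts within 1.5 times, except as follows. In LSK cells between days, normexp gave 0 genes at least 2-fold higher and 0 lower, and the median shift, the brightest probe and own RefSeq probes each gave 0 lower in place of 1. In CD45-negative cells the median was 0.47 with the median shift (4 higher, 2 lower), 3.27 with the spike-in shift (53 higher, 0 lower), 0.27 with quantile (3 lower), 0.29 with cyclic loess (2 lower) and 0.37 with normexp (3 higher). With the brightest probe, saturated or not, it was -0.52 with 21 lower; keeping saturated spots gave 20 lower; counting every member probe gave 3 higher. At day 0 between populations, the spike-in shift gave a median of 1.73 with 56 higher and 0 lower. The percentile of detected probes, quantile, cyclic loess and normexp each gave 1 lower in place of 3. Normexp and the mean of probes gave 2 higher and every member probe 4. At day 10 the median shift gave -0.37 (2 higher, 6 lower), the spike-in shift -1.63 (0 higher, 41 lower), the brightest probe 0.36 (1 lower) and keeping saturated spots 0.31. The spike-in counts stand beside those of all genes in the comparisons above. Saturated spots account by construction for the extra lower genes where they were kept; the cause of the other moves was not tested.

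With the spike-in shift the CD45-negative differences turned to 1.66 (Rps21), 1.80 (Rpl39l), 1.94 (Rplp0), 2.24 (Rpl10), 2.14 (Rpl21) and 2.10 (Rps27a), those at day 0 to 0.72 (Rpl24) and 0.76 (Rps26), and those at day 10 to -0.32 (Rpl10) and -0.67 (Rps15). Own RefSeq probes turned Rpl21 to 0.39 in CD45-negative cells, and the brightest probe turned Rpl12 to 0.40 and Rpl7a to 0.43 at day 10. The brightest probes of Rpl12 and Rpl7a were saturated on both day 10 arrays. Their values are therefore differences in scaling at the scanner limit, not measured folds. No paired analysis was possible because each group has 1 sample and the labels give no shared replicate numbers. Saturation limits the bright members: 29 of 81 genes had no probe that was detected and unsaturated on all arrays.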
